A study of Mus musculus with 3 samples.

Results

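HBO1 is a histone acetyltransferase of the MYST family that works only as part of a protein complex, and the 10 mouse genes encoding the subunits of that complex are described here as places where HBO1 itself was or was not found on chromatin. The list comprises Kat7, which encodes the catalytic subunit HBO1, the BRPF scaffold genes Brpf1, Brd1 and Brpf3, the JADE scaffold genes Jade1, Jade2 and Jade3, the ING genes Ing4 and Ing5, and Meaf6. These were taken by name from the GENCODE annotation and are 10 of its 21938 protein-coding genes on the numbered chromosomes, X and Y. For each gene, HBO1 peaks were looked up at the transcription start site (TSS) of every annotated transcript, in the gene body, and up to 50 kb from the gene.

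In the complex, a scaffold protein holds the catalytic subunit and steers it toward its substrate. BRPF scaffolds direct HBO1 to lysines of histone H3, and JADE scaffolds direct it mainly to histone H4. ING4 or ING5 binds the tail of histone H3 methylated at lysine 4, a mark of active promoters, and MEAF6 is a small subunit common to these complexes. HBO1 was first known as a partner of the origin recognition complex and takes part in the licensing of replication origins. BRPF1, BRD1, ING5 and MEAF6 also serve the related acetyltransferases MOZ and MORF.

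HBO1 ChIP-seq was done in Oct1 deficient mouse embryonic stem cells (ESCs), in which Oct1, a paralog of Oct4 and the product of Pou2f1, is missing. The genotype is that of the labels and the methods, whereas the title of the study's own table of these peaks names wild-type ESCs, and which is right was not tested. The cells were grown in medium with LIF, ascorbic acid, 3 µM of the GSK3 inhibitor CHIR99021 and 1 µM of a MEK inhibitor labelled PD03259010, and were crosslinked with 1% formaldehyde for 10 min. They had been kept on fibroblast feeders, which were depleted on gelatin 1 passage earlier, and how many feeder cells were left is not given in the sources used here. The samples were 2 HBO1 immunoprecipitations and 1 input, sheared chromatin that did not go through immunoprecipitation, all of the same genotype and medium, so that no condition was compared. The deposited data used here were 1 list of 13823 peaks, assumed to stand for both immunoprecipitations, and the aligned read ends of the input. The antibody of the second ChIP sample is labelled HBO2, against HBO1 in its title and in the study's methods, and HBO1 was taken as its target. No second genotype was analysed here, and nothing described below can be tied to the lack of Oct1.

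With 1 peak list and 1 input there was no replicate, and all values below are descriptions without a test. Each peak carries a fold enrichment, the authors' ratio of the ChIP signal at its summit to the local background, and a −log10 q, where q is the authors' adjusted p-value. Over all peaks the median fold enrichment was 3.80 and the median −log10 q was 6.98. The input held 31973678 read ends, of which 68.5% had a mapping quality of at least 20, and its median was 2 read ends per 1 kb of the genome. The files hold no expression values, so the cell type was checked only by peaks at 6 ESC marker genes. Sox2 and Klf4 had a TSS inside a peak, as did 10.9% of all protein-coding genes, and all 6, with Pou5f1, Nanog, Esrrb and Zfp42, had a peak within 1 kb of a TSS, as did 21.7% of all. No markers of other cell types were looked up, so this does not tell ESCs from other cells.

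The sequences just before 6 gene starts are printed to show what the promoters with and without a peak look like. Each ends at the base before the RefSeq start or before the first annotated UTR base, and is written 5′ to 3′ on the strand of the gene, from RefSeq sequence of GRCm38.p6. Capitals mark exact matches, on either strand, to the GC box of SP and KLF factors (GGGCGG), the ETS motif (CCGGAAG) or the CCAAT box. At the first 4 genes a peak covered the outermost TSS (Kat7 and Brd1) or began 210 bp (Jade1) or 64 bp (Jade3) downstream of it, and the last 2 had none within 1 kb of any TSS.
Kat7, chr11:95310247-95310396, minus strand: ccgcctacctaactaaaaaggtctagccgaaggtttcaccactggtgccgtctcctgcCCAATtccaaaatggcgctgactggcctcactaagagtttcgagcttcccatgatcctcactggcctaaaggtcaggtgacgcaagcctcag
Brd1, chr15:88734234-88734369, minus strand: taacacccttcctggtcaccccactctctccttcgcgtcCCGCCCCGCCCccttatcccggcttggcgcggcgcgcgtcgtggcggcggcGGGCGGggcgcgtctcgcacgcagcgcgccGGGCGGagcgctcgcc
Jade1, chr3:41555584-41555730, plus strand: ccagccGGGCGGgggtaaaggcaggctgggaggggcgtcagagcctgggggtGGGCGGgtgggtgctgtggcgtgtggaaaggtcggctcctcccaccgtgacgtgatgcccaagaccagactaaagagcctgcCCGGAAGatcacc
Jade3, chrX:20425538-20425687, plus strand: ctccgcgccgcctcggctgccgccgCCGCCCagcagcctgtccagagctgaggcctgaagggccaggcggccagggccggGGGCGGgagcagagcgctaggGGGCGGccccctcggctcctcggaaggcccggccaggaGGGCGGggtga
Ing5, chr1:93803815-93803964, plus strand: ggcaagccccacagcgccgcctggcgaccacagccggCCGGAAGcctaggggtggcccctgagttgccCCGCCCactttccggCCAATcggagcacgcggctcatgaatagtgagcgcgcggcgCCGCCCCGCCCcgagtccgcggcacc
Meaf6, chr4:125084984-125085133, plus strand: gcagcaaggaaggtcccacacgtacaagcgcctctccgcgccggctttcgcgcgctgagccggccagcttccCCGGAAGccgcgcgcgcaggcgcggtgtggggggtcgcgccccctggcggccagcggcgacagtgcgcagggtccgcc
The RefSeq promoters of these 6 starts, from 250 bases before the start to 50 after it, had GC contents from 53% at Kat7 to 71.7% at Jade3, with 71% at Ing5 and 68% at Meaf6, which had no peak. Over the same 300 bases the GC box occurred 5 times at Jade3, 4 times each at Brd1 and Ing5, 2 times at the outermost Jade1 start, and not at Kat7 or Meaf6.

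A TSS lay inside an HBO1 peak in 6 of the 10 subunit genes, against 10.9% of all protein-coding genes. With only the outermost TSS of each gene the count was 3 (Kat7, Brd1 and Brpf3), against 3.53% of genes, and Jade3 was counted only through the start of a retained-intron transcript. The 6 genes were Kat7, all 3 BRPF genes (Brpf1, Brd1 and Brpf3), Jade1 and Jade3. The other 4 genes, Jade2, Ing4, Ing5 and Meaf6, had no peak within 1 kb of any TSS and none in the gene body. The same 6 genes therefore made up the count with a peak edge within 1 kb of a TSS, which 21.7% of protein-coding genes reached, and the count with a peak in the gene body, which 28.2% reached. The share for the gene body was not matched for gene length. Nor were the shares for any TSS matched for the number of TSSs, which ran from 3 at Jade2 and Ing5 to 15 at Brpf3. At the wider limit of 50 kb around the gene, 9 of 10 had a peak, all but Jade2, against 62% of protein-coding genes. By role, the catalytic gene and the scaffolds that direct HBO1 to H3 all carried a peak at a TSS. So did 2 of the 3 JADE genes, but neither ING gene nor Meaf6. At a −log10 q of at least 10, Brpf1 and Brpf3 dropped out, while Jade1 and Jade3 stayed. With only outermost TSSs, Brpf1, Jade1 and Jade3 dropped out. A difference between the roles was not tested.

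**Figure D1:**
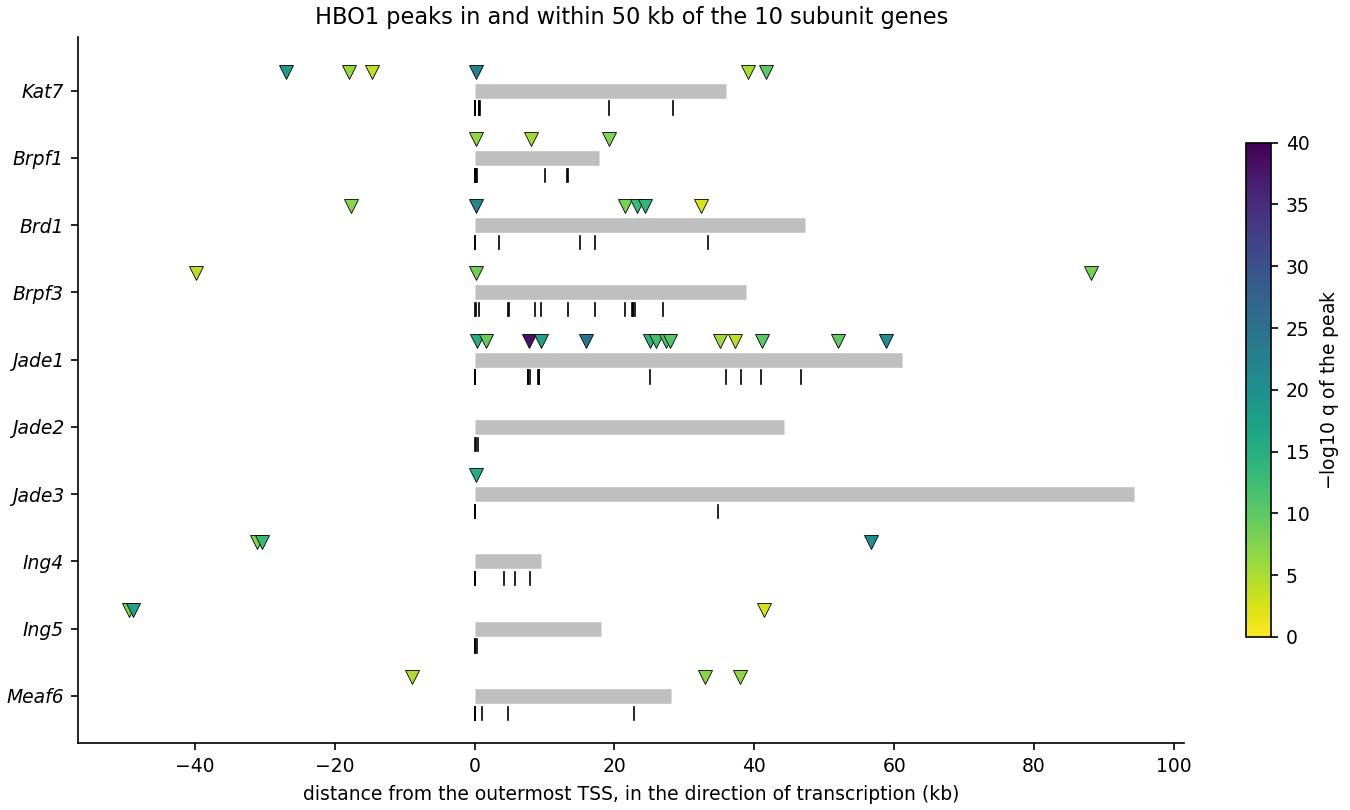
HBO1 peaks around the 10 genes, each drawn from its outermost TSS in the direction of transcription (x axis, kb). Gray bars are the genes, black ticks below them the TSSs of annotated transcripts, and triangles the peak summits, coloured by −log10 q. Triangles stand at or just after the first TSS of Kat7, Brpf1, Brd1, Brpf3, Jade1 and Jade3, 14 of them lie along Jade1, and none lies within 50 kb of Jade2.

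Peaks were more frequent at GC-rich gene starts over the whole genome, so the members are set beside genes of like composition. In the highest of 10 classes of GC content of the 1 kb around the outermost TSS (66.4 to 80.8% GC), 29.4% of genes had a TSS in a peak and 54.2% had a peak within 1 kb. Brpf1 (68.6% GC), Brd1 (71.1%), Brpf3 (77.4%), Jade3 (72.8%) and Ing5 (68.2%) fell into that class, and 4 of these 5 had a TSS in a peak. Kat7 and Jade1, at 55.2 and 55.9% GC, lay in the sixth class, where 10.9% of genes had a TSS in a peak and 20.1% had a peak within 1 kb. The class rests on the outermost TSS, which at Jade1 was in no peak. Of the covered Jade1 starts, that of a retained-intron transcript had 50.5% GC. The others had 59.3 to 64.8%, within the seventh to ninth classes, where 12.6 to 16.5% of genes had a TSS in a peak. Jade2 and Meaf6, at 65.5 and 65.2% GC, lay in the ninth class, where 16.5% had a TSS in a peak. Ing4, at 47.7% GC, lay in the third class, where the share was 5.24%. The part of base composition in the peaks of the members was not tested.

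Kat7, the gene for HBO1 itself, lies at chr11:95274259-95310246 on the minus strand and had 1 peak in its 35988 bp. The peak, chr11:95309938-95310253, covered 4 of the 9 distinct TSSs of Kat7, including the outermost one. Its summit lay 151 bp downstream of that TSS, in a UTR. The fold enrichment was 4.28, higher than in 57.4% of all peaks, and the −log10 q was 22.4, higher than in 95.6% of them. There were 69 input read ends within 1 kb centred on the summit. Within 50 kb of Kat7 there were 5 further peaks, all of them closer to a TSS of another gene, Fam117a or Tac4. One of them, with 2.93-fold enrichment and −log10 q 18.0, covered the TSSs of Fam117a and Gm11521, 26767 bp from Kat7.

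Among the peaks at the starts of the 3 BRPF genes, that of Brd1 was the strongest by both measures. At Brd1, which encodes the scaffold also called BRPF2 and lies at chr15:88687034-88734233 on the minus strand, the peak chr15:88733398-88734309 covered 2 of 6 TSSs with 3.54-fold enrichment and −log10 q 21.7. It was 912 bp wide with a GC content of 81.8%, and its summit lay 217 bp downstream of the outermost TSS. At Brpf1, a scaffold required in the mouse embryo, at chr6:113307137-113324860 on the plus strand, the peak chr6:113307162-113307726 began 25 bp downstream of the outermost TSS and covered 5 of 9 TSSs. Its fold enrichment was 2.21 and its −log10 q was 6.61. At Brpf3, the third BRPF scaffold, at chr17:28801090-28839949 on the plus strand, the peak chr17:28800528-28801436 covered 2 of 15 TSSs with 2.22-fold enrichment and −log10 q 8.73. The summit of this peak also lies in the gene AC140278.1.

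The fold enrichment at Brpf1 was higher than in 12.7% of all peaks, and that at Brpf3 in 12.8%. The input at their summits was high, with 102 read ends in 1 kb at Brpf1 and 139 at Brpf3, against a median of 19 over all peaks. At Brd1, where the fold enrichment was higher, it was 100 read ends, about the same as at Brpf1. All 3 summits lay in UTRs and downstream of the outermost TSS, by 225 bp at Brpf1 and 212 bp at Brpf3. When only peaks with a −log10 q of at least 10 were kept, the nearest peak was 260412 bp from a Brpf1 TSS and 71282 bp from a Brpf3 TSS, and both genes dropped out of the count.

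Within their bodies the 3 BRPF genes differed. Brd1 had 5 peaks in its 47200 bp, a number that 0.707% of protein-coding genes reached or passed. The median length of those genes is 17425 bp, and the share was not matched for length. Peaks 2 to 4 after the promoter peak lay 21569, 23162 and 24337 bp downstream of the outermost TSS, with fold enrichments of 3.59, 6.20 and 5.45. The first of these had its summit in coding sequence and the others in introns, and peak 4 consisted to 61.1% of repeat-masked sequence. Peak 5, at 32323 bp, had a −log10 q of 2.43, higher than in 0.760% of all peaks. Brpf1 had 1 peak besides that at its start, chr6:113314940-113315632, with a summit in coding sequence that also lies in the gene Gm15492, 4.39-fold enrichment and −log10 q 5.70. Brpf3 had none besides that at its start, although it has the most TSSs of the 10 genes.

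Jade1, the scaffold gene of the H4-directed complex, carried 14 of the 24 peaks that overlapped the 10 genes. It lies at chr3:41555731-41616864 on the plus strand, and its 61134 bp ranked eighth of 21938 protein-coding genes by the number of peaks, so that 0.0365% of genes had as many or more. The 7 genes with more peaks were all longer, the shortest of them 85794 bp. Among the 2925 genes of 40 to 80 kb, Jade1 alone had 14 or more (0.0342%), and the mean of that class was 0.6 peaks with a median of 0. Per 10 kb it had 2.29 peaks, a density that 0.275% of 14164 genes of 10 kb or more reached. The input in the 1 Mb around Jade1 was 1.08 times the autosomal level after correction for GC content, and around the other 8 autosomal members it was 1.01 to 1.24 times that level.

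**Figure D2:**
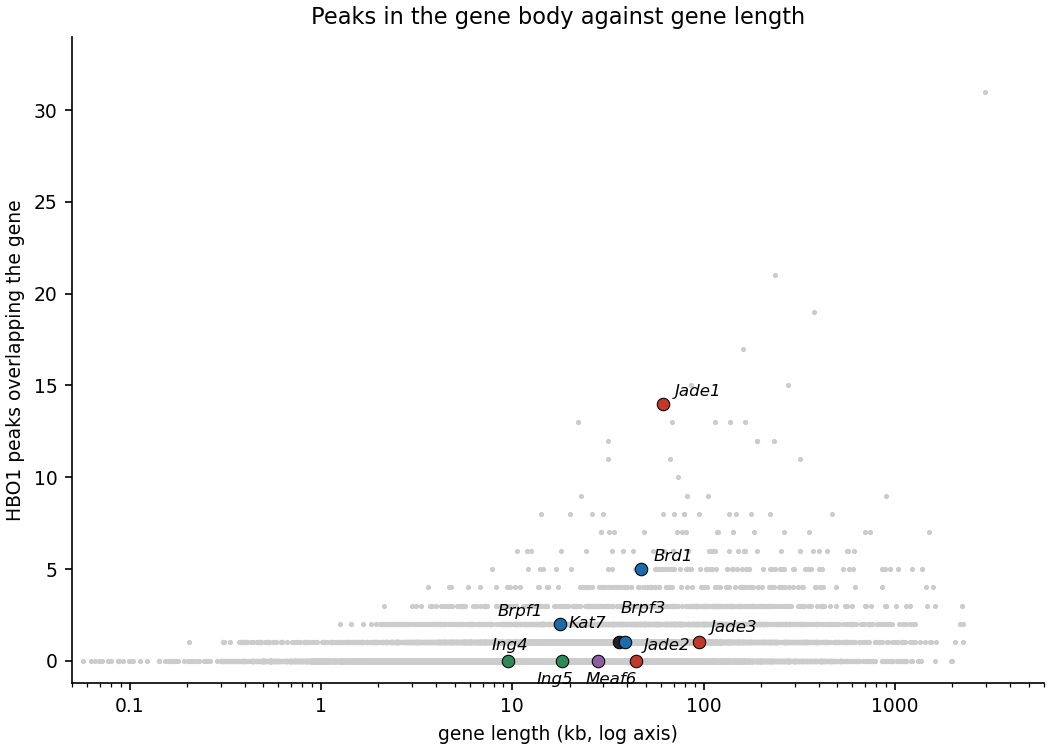
Number of HBO1 peaks overlapping each protein-coding gene (y axis) against gene length (x axis, kb, log scale). Gray points are all genes, except 1 above the axis, and coloured points are the 10 subunit genes. Jade1, with 14 peaks, stands above all genes of 40 to 80 kb, Brd1 has 5, and Jade2, Ing4, Ing5 and Meaf6 sit at 0.

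The transcripts of Jade1 start in several places, and HBO1 peaks lay at or near most of them. Of its 14 distinct TSSs, 7 lay inside a peak and 13 within 1 kb of one. Many of these TSSs lie close together and the gene holds many peaks, and no share over other TSSs was taken for comparison. The outermost start, shared within 29 bp by 3 protein-coding transcripts, was in no peak, but peak 1, with 4.48-fold enrichment and −log10 q 15.2, began 181 bp downstream of the last of them. Peak 3, chr3:41563208-41564004, covered the next 3 TSSs, 7638 to 7876 bp into the gene, and had the highest −log10 q of all 24 peaks, 38.6, higher than in 98.5% of the list. It also covered a TSS of Gm31266. Peak 4, chr3:41564552-41566246, was the widest, at 1695 bp, and covered 3 further TSSs 9123 to 9189 bp into the gene, with 2.89-fold enrichment and −log10 q 17.1. The remaining covered start, that of a retained-intron transcript 25125 bp into the gene, lay in peak 6, with 7.83-fold enrichment and −log10 q 14.2.

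The 2 highest fold enrichments in Jade1 were found away from any annotated start. Peak 14, chr3:41614491-41614828, near the 3′ end of the gene with its summit in a UTR, had a fold enrichment of 10.7, which 0.391% of all peaks reached, and a −log10 q of 20.6. Peak 5, chr3:41571434-41571992, in an intron 15876 bp into the gene and 6514 bp from the nearest TSS of Jade1, followed with 9.34 and a −log10 q of 25.0. Peaks 7 and 13, both intronic, reached 7.45 and 7.27. Peaks 1, 3 and 4, at or near the starts of the protein-coding transcripts at the 5′ end of the gene, had fold enrichments from 2.89 to 4.72. Intronic peaks 8, 9 and 11, with 3.64, 4.39 and 3.56, lay in that range and peak 10, with 2.68, below it, whereas peak 6, at a retained-intron start, had 7.83 with 8 input read ends. There were 44, 69 and 139 input read ends in 1 kb at the summits of peaks 1, 3 and 4, and 13, 5, 2 and 4 at those of peaks 5, 7, 13 and 14. The part of the input in these values was not tested.

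Of the other peaks of Jade1, peak 2, 1654 bp into the gene in an intron, had 4.91-fold enrichment with −log10 q 9.52. Peaks 6 to 9 formed the tightest group, with summits 25141, 25995, 27369 and 27982 bp into the gene and 243 bp between the last 2. Their fold enrichments fell along the gene in that order except for the last, at 7.83, 7.45, 3.64 and 4.39, and the input at their summits was 8, 5, 29 and 16 read ends. Peak 8 consisted to 45.0% of repeat-masked sequence. The lowest of the 14 by either measure were peak 10, with 2.68-fold enrichment, and peak 11, with −log10 q 4.05, which lay 549 and 267 bp from starts of retained-intron transcripts. Peak 12 was the only one of Jade1 with its summit in coding sequence, 29 bp from the start of another protein-coding transcript, and had 5.39-fold enrichment with −log10 q 10.2.

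Of these Jade1 peaks, 2 are shown by the 121 bases around their summits on the plus strand of GRCm38, because they differ in kind: peak 4 lies in a CpG-rich stretch beside a cluster of transcript starts, and peak 5 in an intron with few CpGs. Capitals mark the same motifs as above.
Peak 4, chr3:41565224-41565344, plus strand: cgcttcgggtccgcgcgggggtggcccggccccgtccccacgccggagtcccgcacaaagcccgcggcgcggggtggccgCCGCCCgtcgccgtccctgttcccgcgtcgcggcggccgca
Peak 5, chr3:41571547-41571667, plus strand: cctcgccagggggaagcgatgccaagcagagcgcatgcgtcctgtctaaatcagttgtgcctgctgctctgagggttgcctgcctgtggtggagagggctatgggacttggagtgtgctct
The ratio of observed to expected CpGs was 0.871 in peak 4 and 0.266 in peak 5, and their GC contents were 71.0 and 54.7%.

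Over all 14 peaks of Jade1, the fold enrichment ran from 2.68 to 10.7 with a median of 4.82, and the −log10 q from 4.05 to 38.6 with a median of 11.7. Of the 14, 10 had −log10 q values of 10 or more, as did 25.2% of all peaks in the list. Of the summits, 11 lay in introns, 1 in coding sequence, 1 in a UTR and 1 in an exon of a noncoding transcript. The peaks were spread over 58888 bp, from near the start to near the end of the gene, with gaps of 243 to 10535 bp and a median gap of 3189 bp. They covered 7440 bp, or 12.2% of the gene. Outside the gene the nearest peaks were 146986 bp upstream and 707690 bp downstream.

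**Figure D3:**
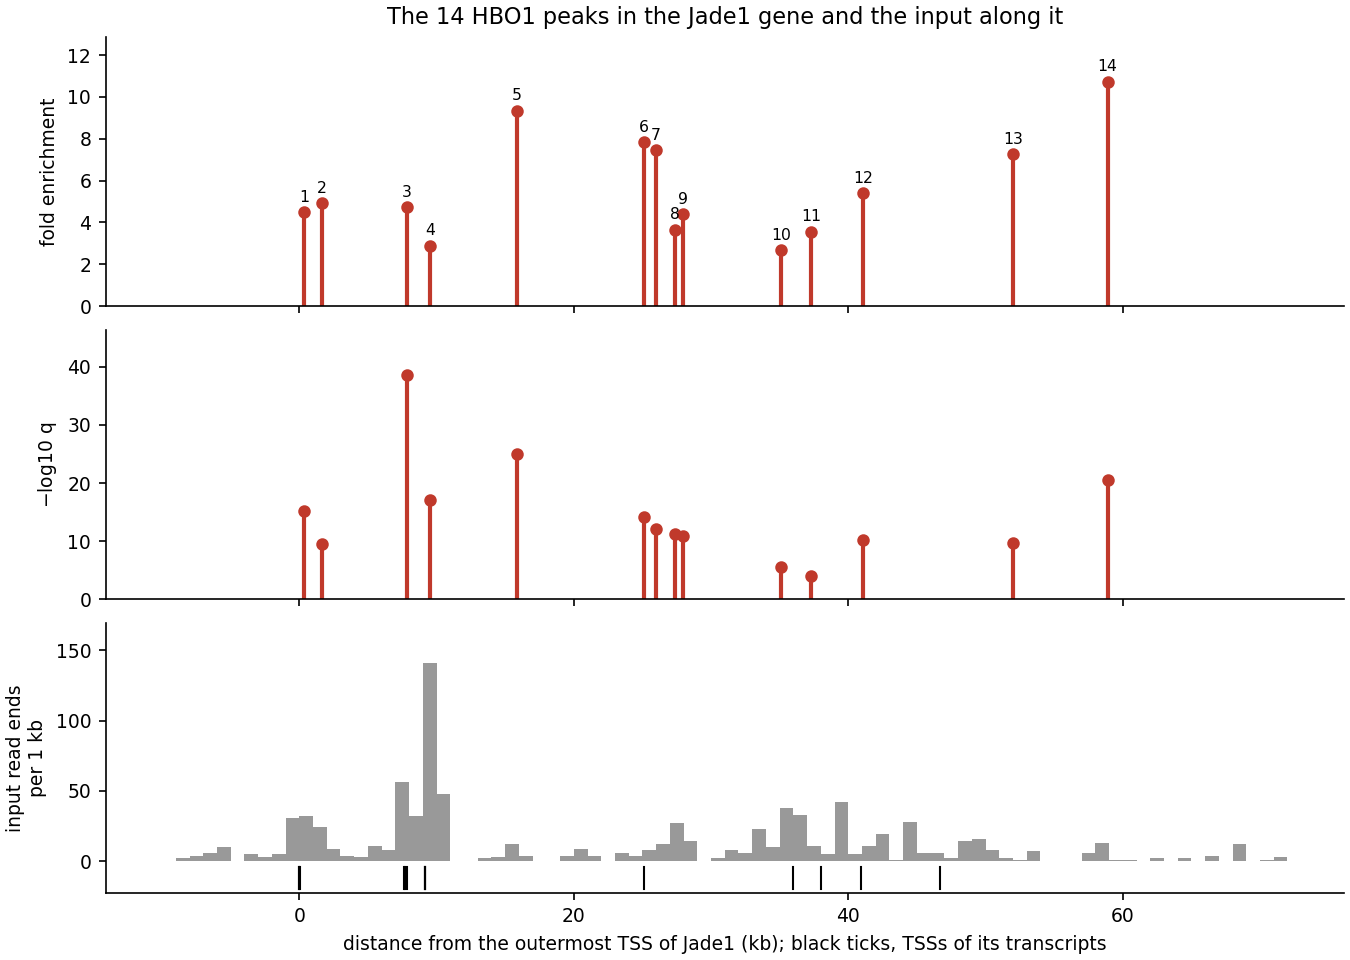
The 14 HBO1 peaks along Jade1, by distance of the summit from the outermost TSS (x axis, kb), with fold enrichment (top, peaks numbered), −log10 q (middle) and input read ends in 1-kb bins (bottom, with the TSSs as black ticks). Peak 3 has the highest −log10 q, 38.6, and peaks 5 and 14 the highest fold enrichments, 9.34 and 10.7, in bins with 12 and 13 input read ends.

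Jade2 and Jade3, the paralogs of Jade1, stood apart from it and from each other. Jade3, at chrX:20425688-20519939 on the plus strand, is the longest of the 10 genes at 94252 bp and had 1 peak, chrX:20425752-20426389. It began 64 bp downstream of the outermost TSS and covered 1 of 4 TSSs, that of a retained-intron transcript, with 4.97-fold enrichment and −log10 q 15.5. The input around Jade3 was low, at 0.637 times the autosomal level over 1 Mb. The 1-Mb windows of chromosome X had a median of 0.518, and 95% of them lay between 0.133 and 0.631, so Jade3 stood just above that range. Its outermost TSS had 24 input read ends in 1 kb, fewer than in nearly all genes of its GC class, where the median was 108.

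Jade2, at chr11:51813455-51857653 on the minus strand, was the only one of the 10 genes without a peak within 50 kb. Its nearest peak lay 109920 bp from its outermost TSS, a distance that 24.9% of protein-coding genes reached or passed, while the median over all of them was 33487 bp. The input at its 3 TSSs held 81 to 96 read ends in 1 kb, more than at the covered TSSs of Kat7, Brd1 and Jade3 and fewer than at those of Brpf1 and Brpf3, while those of Jade1 ran from 7 to 99. The locus was at 1.10 times the autosomal level, inside the range of 0.695 to 1.24 that held 95% of autosomal 1-Mb windows.

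The ING genes had no peak of their own. Ing4, at chr6:125039760-125049265 on the plus strand, lay 30162 bp from the nearest peak, which covered a TSS of Zfp384, and a peak on the other side covered a TSS of Chd4, the remodeling ATPase of the NuRD complex. The 1 kb around each of the first 4 TSSs of Ing4 held 0 input read ends. For independent counts, counting error alone would allow up to 3.69. Both ends of a pair were counted, so that limit is too low. No read end had its midpoint in a stretch of 2335 bp around the outermost TSS. In the GC class of Ing4 the median at the outermost TSS was 5 read ends, and 15.6% of genes had no more than Ing4. The input over the 1 Mb around Ing4 was 1.11 times the autosomal level. Whether the chromatin at the start of Ing4 was sampled in the ChIP was therefore not detectable from the input. Ing5, at chr1:93803965-93822101 on the plus strand, had 134 input read ends at its outermost TSS, the highest of the 10 genes there, and no peak within 40812 bp of a TSS. The peaks nearest to it lay at TSSs of Thap4 and Atg4b and at D2hgdh, the last in sequence that was fully repeat-masked.

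Meaf6, at chr4:125085134-125113238 on the plus strand, came closest to having a peak among the genes without one. A peak with 4.73-fold enrichment and −log10 q 4.94 lay 8769 bp upstream, nearest to Gm12932. A further 2 lay on the far side of the gene, 4637 and 9773 bp from its end and nearest to Zc3h12a. The input at the outermost TSS of Meaf6 held 85 read ends. Among peaks with −log10 q values of 10 or more, the nearest to Meaf6 was 731739 bp away.

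All 18 peaks that lay within 50 kb of a member gene but outside it were closer to a TSS of another gene than to a member TSS. Of these, 6 covered a TSS of another gene. Ing4, Ing5 and Meaf6 had a peak within 50 kb only through such peaks. The share of such peaks around other genes was not computed.

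**Figure D4:**
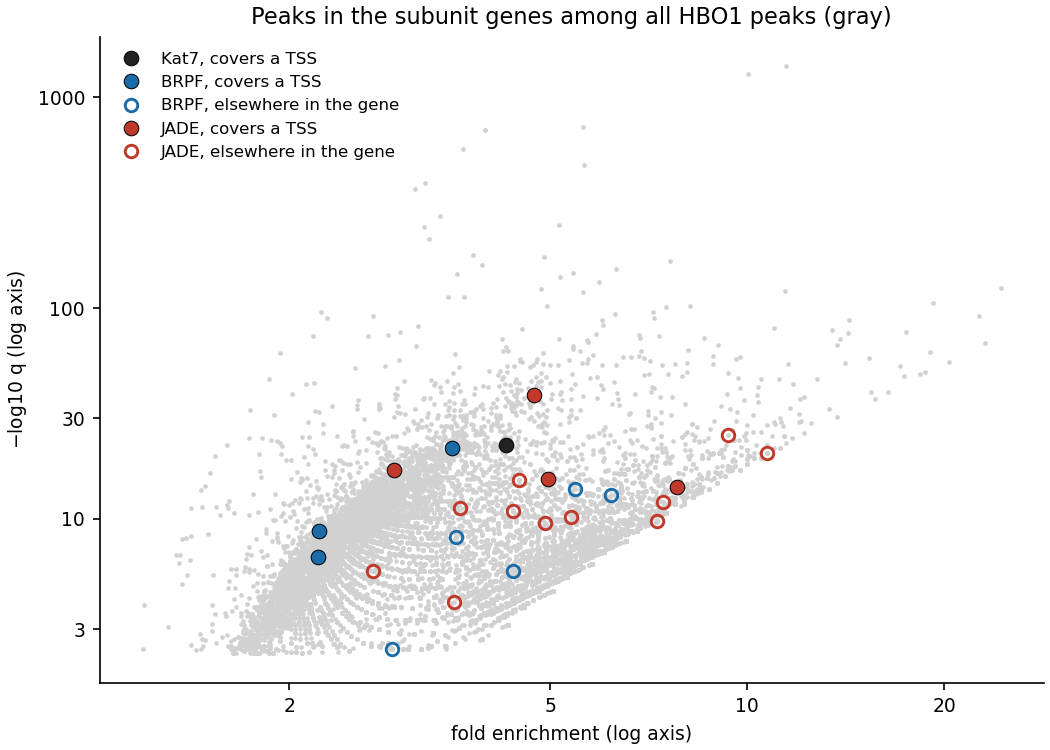
Fold enrichment (x axis) and −log10 q (y axis, both log scales) of all 13823 HBO1 peaks in gray and of the 24 peaks in the subunit genes in colour, filled where the peak covers a TSS of the gene. The promoter peaks of Brpf1 and Brpf3 lie at 2.21 and 2.22 in fold enrichment, and open circles of Jade1 reach 10.7 in fold enrichment.

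The input was compared over all 78 distinct TSSs of the 10 genes. Whether the authors' peak caller used it as the control is not given in the sources used here. The 21 TSSs inside a peak had 7 to 136 input read ends in 1 kb with a median of 75, and the 57 others had 0 to 134 with a median of 33. The ranges overlapped almost completely. GC content moved with them, with a median of 64.8% around covered TSSs and 52.7% around the others, and many TSSs of a gene share the same window, so they are not independent points. The outermost TSS of Brpf3, in a peak, had 131 read ends, and that of Ing5, in none, had 134. The part of the input in where peaks were called was not tested. At all 6 genes with a peak at or after the outermost TSS, the first summit lay downstream of it, by 151 to 374 bp. At these genes the input was also higher in the 1 kb downstream than in the 1 kb upstream, except at Jade1, where both were about equal. Kat7 had 70 input read ends downstream and 8 upstream, and Brd1 had 119 and 19. Brpf1 had 90 and 61, Brpf3 117 and 72, Jade3 24 and 14, and Jade1 32 and 31. The same side was higher at Ing5, with 92 and 47, and at Meaf6, with 66 and 33, which had no peak there, while Jade2, also without a peak, had fewer downstream, with 86 and 110. Ing4 had 4 and 0.

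**Figure D5:**
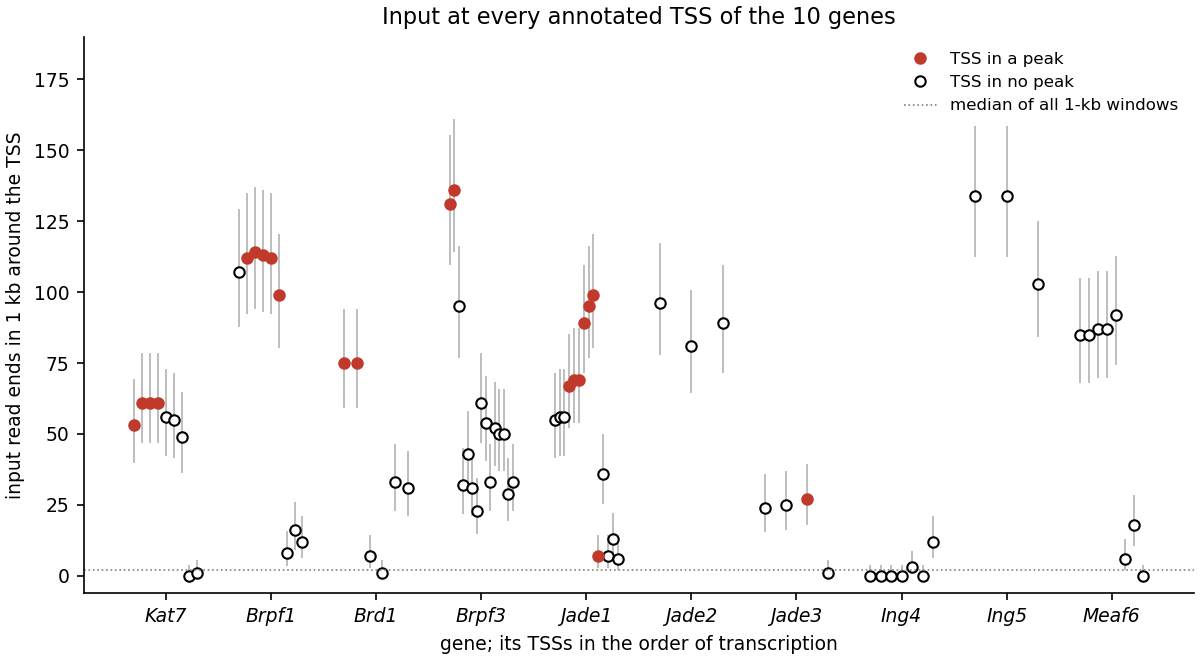
Input read ends in the 1 kb around every annotated TSS of the 10 genes (y axis), with TSSs of a gene in order of transcription. Vertical lines are the exact 95% Poisson interval, which covers counting error only and treats read ends as independent. Both ends of a pair were counted, so the lines are too short. Filled points are TSSs in a peak and open points TSSs in none. The 2 kinds overlap, and the first 4 TSSs of Ing4 sit at 0.

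Sequence features were looked for in the 12 RefSeq promoters of 9 of the 10 genes, all but Jade2, each from 250 bases before the start to 50 after it, and in the 201 bases around the 24 summits. The motifs were, besides the GC box, ETS and CCAAT, the octamer bound by Oct4 and Oct1 (ATGCAAAT), the palindromic MORE to which these factors bind as dimers (ATGCATATGCAT), the NRF1 motif (GCGCATGCGC) and the TATA box (TATAAA). Both strands were searched for exact matches, and no motif holds the letters of another. The GC box was found in 10 of 12 promoters, and in 47.8% of 20150 promoters of protein-coding genes. Several of the 12 belong to Jade1, all of them with a GC box. GC content was not matched: it ran from 46.7% at Ing4 to 78.7% at Brpf3, with a median of 57% over all promoters. The ETS motif was found in 5, at Kat7, Jade1, Ing4, Ing5 and Meaf6, and in 11.9% of all promoters. CCAAT was found in 3 promoters and in 37.8% overall. Octamer, MORE, NRF1 and TATA letters were in none of the 12, and in 1.55%, 0.00993%, 1.38% and 12.1% of all promoters.

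At the summits of the 24 peaks, the GC box was found in 7 windows and CCAAT in 4, against 29.7% and 18.3% of the 13823 summits of the list. None of the 24 held an octamer, a MORE, an NRF1, an ETS or a TATA match, which 0.195%, 0.00723%, 0.0434%, 5.49% and 1.80% of all summits held. The MORE was of interest because the study asked whether HBO1 and Jade1 gather at such sites. Along the whole length of the 10 genes there were 22 exact octamers and 4 near matches to the MORE, each with 1 mismatch. None of the genes held an exact MORE, and none of these octamers and near matches lay in a peak. The nearest of them to a peak was an octamer in Jade1 at a distance of 1883 bp. The nearest of the MORE near matches was in Meaf6 at 8718 bp. The share of such sites in peaks over all genes was not computed, so their absence from peaks has no background beside it. A match is a run of letters and not a measured site, and its absence from a window tells nothing about the factor.

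Genes related to the complex in function were looked up in the same way, and their counts stand beside the 10.9% of all protein-coding genes with a TSS in a peak. Their GC content was not taken into account. Of the MOZ and MORF catalytic genes, which work with the same BRPF scaffolds, Kat6b had 12 peaks in its body with 2 of them covering a TSS, and Kat6a had its nearest peak 70947 bp away. Of the other MYST genes, Kat5 and Kat8 had no TSS in a peak. Among other ING genes, Ing1 and Ing2 had a TSS in a peak and Ing3 did not, while Ing4 and Ing5 had none. Of 15 genes of replication origin licensing, 6 had a TSS in a peak, namely Cdt1, Mcm2, Mcm3, Mcm7, Orc2 and Orc4. The highest fold enrichment of a covering peak in each of them ran from 2.14 at Orc4 to 3.77 at Mcm7. Taken peak by peak, the 8 member peaks that cover a TSS ran from 2.21 at Brpf1 to 7.83 at peak 6 of Jade1. That peak lay at a retained-intron start with 8 input read ends, and the next highest value was 4.97 at Jade3. These ranges are not like for like, since that of the licensing genes takes only the highest covering peak of each gene.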

How the data were processed

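Immunoprecipitated chromatin from 2 samples and input chromatin from 1 sample of Oct1 deficient ESCs were sequenced in pairs. Reads were mapped to mm10 by the authors with Novoalign 4.03.01, and MACS2 called the peaks at q 0.005 and a maximum gap of 100 bp. How the ChIP samples were combined is not given in the sources used here. Per peak, the deposited list holds a fold enrichment (the authors' ratio to local background), the −log10 q from the authors' peak caller, a display score and the summit. The deposited input lists every mapped read end and a score for its mapping quality given by the authors' aligner, and was not normalized.

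The members and all gene lists were chosen with earlier results of these data known. Genes named besides the members are those at or nearest to a peak in or near a member gene and the genes of the lists of related genes and ESC markers, where genes without a peak at a TSS (Kat6a, Kat5, Kat8, Ing3 and 4 markers) were named beyond the rule, with their values known. A peak lay at distance 0 where it covered the TSS, and otherwise its edge was used. Transcripts came from GENCODE vM21, sequence from GRCm38 and promoters from RefSeq of GRCm38.p6. Input read ends were counted at midpoints. Input levels of loci used 1-kb windows between 30 and 65% GC, no more than 200 read ends each, and a mapping quality of at least 20, against autosomal windows of the same 2% GC class, chromosome 3 left out. The scripts ran under Python 3.11.15 (pandas 2.3.3, numpy 2.4.6, scipy 1.17.1, matplotlib 3.10.9). Distances and the motif search were tested on simulated data. The alternatives tried were other limits on q, other sets of TSSs, distances and input read ends. No p-value was computed. Intervals are exact Poisson ones with 95% confidence and cover counting error only. They treat read ends as independent counts. Both ends of a pair were counted, with 15963975 first reads among the 31973678 read ends, so the intervals are too narrow.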

Additional observations from a re-analysis of the deposited data

How the results depend on the processing

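With only the outermost TSS of each gene, 3 members (Kat7, Brd1 and Brpf3) had it inside a peak in place of 6, since the peaks of Brpf1, Jade1 and Jade3 began 25, 210 and 64 bp from it, and the median input around member TSSs was 80 read ends in place of 52.5. The count of members with a peak within 1 kb stayed at 6 under that setting. At a −log10 q of at least 10 the peaks in member gene bodies fell from 24 to 15, and 4 members (Kat7, Brd1, Jade1 and Jade3) had a peak at a TSS, all by construction with fewer peaks. The share of protein-coding genes with a TSS in a peak went from 10.9% to 9.06% for −log10 q limits of 5, 4.80% for 10, 8.54% with protein-coding transcripts and 3.53% with outermost TSSs. The share with a peak within 1 kb went from 21.7% to 17.3%, 7.97%, 20.7% and 18.7% in that order. With protein-coding transcripts only, 5 members had a TSS in a peak, without Jade3, and with the summit within 100 bp of a TSS it was 4, without Brd1 and Jade3. The 9 members with a peak in the gene or within 50 kb became 6 with −log10 q limits of 10 and 7 within 20 kb. The matching shares of all protein-coding genes were not computed for these changes to the 50 kb count, nor for the summit within 100 bp. Whether the members moved differently from other genes under these settings was therefore not tested. No paired analysis was possible because 1 peak list stands for both ChIP samples, and for the same reason no replicate could be left out.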
